A study of Mus musculus with 10 samples.

Results

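The genes described here carry inflammatory danger signals from receptors to the transcription factor NF-κB. They are Toll-like receptors, cytosolic sensors and inflammasome parts, the adaptors and kinases below them, and the NF-κB subunits. The inhibitors that feed back on the pathway, and their relatives, complete the set. The set is a list of 48 mouse gene symbols, chosen by pathway and matched to the gene names on the arrays. All 48 had a probe, out of 35527 gene names on the array, and 44 were bright enough to be tested among 22520 names. The question was which of them differed between elastase-treated and saline-treated aorta 7 days after surgery.

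Male 10-week-old C57BL/6J mice on a normal diet had the infrarenal aorta filled for 5 min at 100 mmHg with saline (sham, 5 mice) or with saline that held type I porcine pancreatic elastase at 1.5 U/mL (PPE, 5 mice). Elastase digests the elastic fibres of the wall, and the vessel then widens into an abdominal aortic aneurysm (AAA). Both groups had the same ligatures, aortotomy and repair, so they share the surgery and differ in the enzyme. Each 2-colour array compared unpooled RNA (500 ng) from the whole treated segment of 1 aorta, in the red channel, with a universal mouse reference RNA in the green channel, and every value below is a log2 ratio of aorta over reference or a difference of such ratios.

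Toll-like receptors recognise microbial lipids, proteins and nucleic acids, and some also respond to products of damaged cells. They signal through the adaptors MyD88, TIRAP, TRIF and TRAM to IRAK and TRAF proteins and then to the IκB kinases, which mark the IκB inhibitors for destruction and release NF-κB dimers to the nucleus. Inflammasomes are separate cytosolic assemblies in which a sensor recruits the adaptor ASC and caspase-1, which matures interleukin-1β and interleukin-18. Macrophages and neutrophils hold most of these proteins, while smooth muscle and endothelium express a smaller part of them. Some of the genes, among them Nfkb2, Relb, Nfkbia and Tnfaip3, are themselves NF-κB target genes.

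The tissue label was checked with marker genes. All 10 smooth muscle markers were well above background on 5 of 5 sham arrays, as were all 8 endothelial markers. Of all 22520 names tested, 15552 were too, so detection alone says little about the tissue. Of 6 adipocyte markers, 5 were also detected on every sham array. The mean log2 ratio of adipocyte markers was 4.48 to 5.62 on the sham arrays, and that of smooth muscle markers 3.02 to 4.19. Red spots well above background ranged from 37.6% (sham 5) to 65.8% (PPE 1) of each array, and no spot was saturated. PPE 1, PPE 2 and sham 1 lay on slide 1, sham 2, sham 3, PPE 3 and PPE 4 on slide 2, and the remaining arrays on slides of their own. Separate mice were used, so the spread within a group includes the animal.

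In the promoters of these genes, the sequence that NF-κB dimers bind, the κB site, can be read directly. RefSeq promoters (build GRCm38.p6, 250 bases before to 50 bases after the start) were matched for 39 of the 48 genes, and the 10-base consensus κB site was searched on both strands. It occurred in at least 1 promoter of 10 of the 39 genes (25.6%), against 1388 of 27025 genes (5.14%) in the whole promoter table. By role, it was found in 3 of 5 feedback inhibitors and IκB proteins and in 2 of 3 subunits. It was also found in 2 of 8 cytosolic sensors and inflammasome genes and in 1 of 5 cell-surface receptors. For endosomal receptors it was 1 of 6, and for adaptors and kinases 1 of 12. A match is a run of letters and was not tested for binding. It was found in 8 of 27 genes called higher in PPE at a limma adjusted p under 0.01 (29.6%). Of genes tested and not called, 1 of 9 had it (11.1%). No match was found for Traf1, Tlr1 or Tlr13, the genes with the largest changes. Whether a match goes with a rise was not tested. Shown are the 6 genes that had a match and also rose in PPE by more than 1 on the log2 scale, so they were picked by both. Of these, 3 encode inhibitors of the pathway. Each sequence is the coding strand, 5′ to 3′, up to the start site or the end of a match across it, with the κB consensus in capitals (overlapping matches form 1 run). For Nfkb2 the table holds 3 promoters and for Casp4 and Tnfaip3 2 each, and the one shown is the first with a match in the order of the genome. The other Tnfaip3 promoter, which comes before it in that order, held 0 matches. The remaining Nfkb2 promoters held 2 runs and 1, and the remaining Casp4 promoter 1. These promoters overlap, so some runs are counted again. The run of the remaining Casp4 promoter is the one shown, and the remaining Nfkb2 promoters share 1 run.
Nfkbia (chr12:55492648-55492897, minus strand): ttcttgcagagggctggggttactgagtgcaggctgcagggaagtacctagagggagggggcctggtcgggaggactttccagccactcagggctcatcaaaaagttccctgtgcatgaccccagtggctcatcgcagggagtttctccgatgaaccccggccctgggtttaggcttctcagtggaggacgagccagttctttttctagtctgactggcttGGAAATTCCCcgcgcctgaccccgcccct
Nfkbie (chr17:45555450-45555699, plus strand): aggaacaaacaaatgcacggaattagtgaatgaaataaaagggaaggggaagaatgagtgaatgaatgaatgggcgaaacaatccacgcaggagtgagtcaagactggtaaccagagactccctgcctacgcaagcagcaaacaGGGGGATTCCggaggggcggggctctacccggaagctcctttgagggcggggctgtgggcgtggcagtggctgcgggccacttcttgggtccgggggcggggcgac
Tnfaip3 (chr10:19015411-19015660, minus strand): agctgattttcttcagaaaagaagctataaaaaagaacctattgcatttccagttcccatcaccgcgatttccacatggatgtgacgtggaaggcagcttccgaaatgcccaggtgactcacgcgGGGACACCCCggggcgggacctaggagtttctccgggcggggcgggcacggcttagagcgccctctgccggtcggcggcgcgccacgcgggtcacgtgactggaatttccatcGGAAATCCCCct
Nfkb2 (chr19:46304487-46304736, plus strand): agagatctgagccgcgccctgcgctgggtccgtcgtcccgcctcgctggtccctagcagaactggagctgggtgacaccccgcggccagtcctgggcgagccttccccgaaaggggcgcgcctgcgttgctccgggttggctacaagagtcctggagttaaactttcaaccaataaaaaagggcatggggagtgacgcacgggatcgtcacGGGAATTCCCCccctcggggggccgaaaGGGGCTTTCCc
Tlr2 (chr3:83841607-83841858, minus strand): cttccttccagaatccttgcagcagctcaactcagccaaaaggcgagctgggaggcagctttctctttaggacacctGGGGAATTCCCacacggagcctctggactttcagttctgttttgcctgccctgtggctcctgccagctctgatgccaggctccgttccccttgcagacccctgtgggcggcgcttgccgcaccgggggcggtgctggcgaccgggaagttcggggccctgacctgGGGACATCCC
Casp4 (chr9:5308599-5308848, plus strand): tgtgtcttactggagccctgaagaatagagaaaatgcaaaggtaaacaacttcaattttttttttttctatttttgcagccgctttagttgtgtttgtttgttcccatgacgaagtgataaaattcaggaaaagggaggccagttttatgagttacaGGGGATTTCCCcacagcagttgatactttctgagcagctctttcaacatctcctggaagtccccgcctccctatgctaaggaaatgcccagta
The promoters shown for Tnfaip3, Nfkb2 and Tlr2 each hold 2 separate runs of the consensus and those shown for Nfkbia, Nfkbie and Casp4 hold 1. In Tlr2 the second run crossed the start site.

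Of the 44 tested genes, 33 rose in PPE, none fell, and 11 did not pass the test (limma adjusted p under 0.01 over all 22520 names). At an unadjusted limma p under 0.05, 38 were higher and 0 lower, and the SAM test also called 38 higher and 0 lower. Of all 22520 names, 9825 had an unadjusted limma p under 0.05, in either direction. SAM called 4671 of 22489 names higher and 3086 lower. At the limma adjusted threshold, 13.9% of all names tested were called higher and 9.96% lower. A gene was tested if its probe was above background on 5 or more of the 10 arrays, so a gene dim in sham could pass through its PPE arrays. Of the 44, 32 were above background on every sham array, and of these 24 rose, against 15.1% of all names detected in that way. The other 12 were above background on 1 to 4 sham arrays. The median log2 fold change of the 44 genes was 1.10 (range -0.27 to 3.67), against 0.02 for all names. The PPE and sham values did not overlap for 34 of the 44, against 25.5% of all names. A log2 fold change over 1 was measured for 23 of the 33 genes that rose, over 2 for 11 and over 3 for 3, which were Traf1, Tlr1 and Tlr13. With each array centred on its median in place of loess, 6 of the 44 passed the test. Those were Tlr1, Tlr2, Tlr13, Nod2, Pycard and Traf1. That setting moved the median of all names to 0.41 and gave 408 names higher and 8 lower, against 3122 and 2244 in the fit reported here. Relative to the median of all names, the median of the genes described here was 1.10 under that setting and 1.08 in the reported fit.

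**Figure D1:**
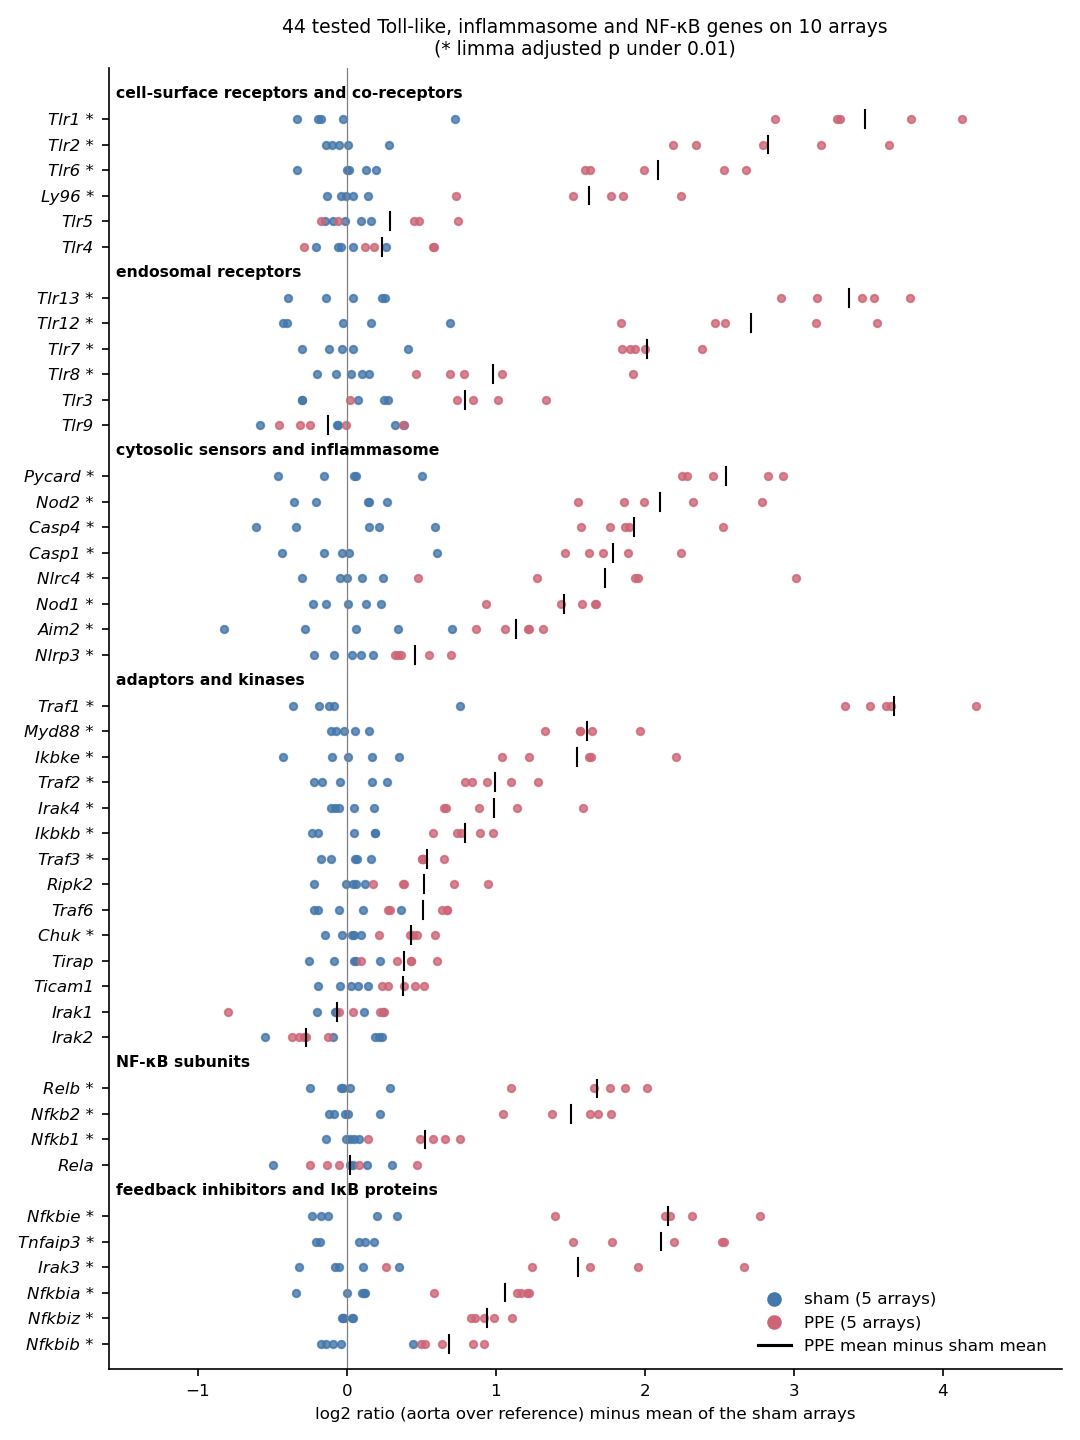
Each dot is 1 array, plotted as its log2 ratio of aorta over reference minus the mean of the 5 sham arrays for that gene (x axis), with the 44 tested genes ordered by role and by size of change (y axis). Black ticks mark the difference of the group means, asterisks mark a limma adjusted p under 0.01, and the PPE dots lie to the right of all sham dots for 34 genes.

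Values were also compared within slides. All 33 genes that rose were higher in PPE within slides 1 and 2. Slide 1 held 1 sham and 2 PPE arrays, and slide 2 held 2 of each. For 32 of the 33 genes the groups did not overlap. Their direction within a slide was thus fixed beforehand and does not test the slides. The median difference of the 44 genes was 1.45 within slide 1 and 1.11 within slide 2. With slide as a fixed block, 31 of the 44 genes were called higher. Tlr8, Nlrp3, Chuk and Nfkb1 lost their calls in that fit, while Tlr3 and Traf6 gained one. With slide as a random block, Tlr3, Traf6, Ticam1 and Tirap gained a call.

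The PPE arrays were not alike. PPE 1 had the highest of the 5 PPE values for 23 of the 33 genes that rose, and PPE 5 had the lowest for 16. Among all 3120 names called higher with a value on each PPE array, PPE 1 was highest for 52.5% and PPE 5 lowest for 44.5%. PPE 1 was also the array with the most detected red spots of all 10, and PPE 5, with 45.8% of spots detected, had the fewest of its group. The part of signal brightness in these orders was not tested. Without PPE 5 and sham 5, the dimmest array of each group, 31 genes were called higher and none lower, an alternative added after the data were seen.

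Of the 6 tested cell-surface receptors and co-receptors, 4 rose, with a median log2 fold change of 1.85 over the 6 (range 0.24 to 3.48). Of the 6, 3 were above background on every sham array, and 2 of these rose. The 4 that rose were Tlr1, Tlr2, Tlr6 and Ly96. Tlr1 and Tlr6 each pair with Tlr2 to bind bacterial lipopeptides, and Ly96 encodes the MD-2 protein that holds lipopolysaccharide for Tlr4. Tlr1 (probe at chr5:65316115-65316174, mm9) had log2 ratios of -0.23, -0.08, 0.83, 0.08 and -0.07 on sham arrays 1 to 5 and 4.24, 3.90, 3.42, 3.40 and 2.98 on PPE arrays 1 to 5. The groups were far apart, from 0.83 as the highest sham value to 2.98 as the lowest PPE value, and the log2 fold change was 3.48 (adjusted p = 2.26e-06 by limma, SE 0.255). Tlr2 (chr3:83640344-83640403), the common partner of the lipopeptide receptors, gave -0.51, -0.40, -0.55, -0.46 and -0.12 in sham and 3.23, 1.94, 2.38, 2.77 and 1.78 in PPE. No sham array reached 0 and no PPE array was below 1.78, for a log2 fold change of 2.83 (adjusted p = 6.77e-06 by limma, SE 0.246). Tlr6 measured -0.94, -0.41, -0.61, -0.59 and -0.48 in sham and 1.92, 1.03, 1.39, 2.07 and 0.99 in PPE. The groups were again apart, with a log2 fold change of 2.09 (adjusted p = 2.53e-05 by limma, SE 0.218). Ly96 rose by 1.62 on the log2 scale (adjusted p = 0.000211 by limma, SE 0.229), and its PPE values ranged from 0.73 to 2.23.

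Tlr4, the lipopolysaccharide receptor itself, did not pass the test. Its log2 ratios were 0.05, 0.15, -0.10, 0.07 and 0.37 in sham and 0.70, 0.23, 0.29, 0.68 and -0.18 in PPE. The lowest value of all 10 was on PPE 5 and the highest on PPE 1, so the groups overlapped, and the log2 fold change was 0.24 (adjusted p = 0.327 by limma, SE 0.171). Tlr5, the flagellin receptor, had a log2 fold change of 0.29 (adjusted p = 0.233 by limma, SE 0.173). The probe of Cd180, a relative of Tlr4 that dampens its signal in myeloid cells, was well above background on 0 of 5 sham and 4 of 5 PPE arrays and was too dim to be tested. On the red channel (after loess and Aquantile, against the higher of its own sham signal and the lowest signal called above background on each array) it was at least 1.50-fold higher in PPE. Such a bound is open to dye bias, since dyes were not swapped.

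Among the endosomal receptors, 4 of 6 tested genes rose and the median log2 fold change was 1.50 (range -0.13 to 3.37). Of the 6, 3 were above background on every sham array, and 2 of these rose. Of the 5 receptors that bind nucleic acids (Tlr3, Tlr7, Tlr8, Tlr9 and Tlr13), 3 rose, with a median of 0.98. Tlr13, which binds bacterial ribosomal RNA (chrX:103355773-103355832), had log2 ratios of 0.55, 0.37, 0.12, 0.75 and 0.76 in sham and 4.29, 3.96, 3.42, 3.66 and 4.05 in PPE. The lowest PPE value was 3.42 and the highest sham value 0.76, for a log2 fold change of 3.37 (adjusted p = 3.92e-07 by limma, SE 0.182). Tlr12, a receptor for a protein of protozoan parasites, gave -0.99, -0.40, 0.13, -0.96 and -0.59 in sham and 2.99, 2.59, 1.98, 1.91 and 1.28 in PPE. Its sham values were scattered but stayed below every PPE value, with a log2 fold change of 2.71 (adjusted p = 5.19e-05 by limma, SE 0.313). Tlr7, a receptor for single-stranded RNA, measured 0.41, 0.26, 0.08, 0.34 and 0.79 in sham and 2.76, 2.31, 2.27, 2.22 and 2.37 in PPE. The PPE values lay close together, and the log2 fold change was 2.01 (adjusted p = 2.51e-06 by limma, SE 0.15). A second tested Tlr7 probe gave 2.27, and the remaining one was at background throughout.

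Tlr8, the neighbour of Tlr7 on chromosome X, was dimmer. Its probe was above background on 1 of 5 sham and 5 of 5 PPE arrays, with log2 ratios of 0.17, -0.06, 0.07, 0.25 and 0.30 in sham and 2.07, 0.84, 0.61, 1.19 and 0.93 in PPE. The lowest PPE value, 0.61, lay above the highest sham value, 0.30, and the log2 fold change was 0.98 (adjusted p = 0.00643 by limma, SE 0.233). The call was lost when any sham array or PPE 4 was left out. A second Tlr8 probe gave 0.48. Tlr9, the receptor for unmethylated CpG DNA, did not pass the test. It gave 1.08, 1.08, 0.56, 1.47 and 1.53 in sham and 0.90, 1.14, 0.83, 0.69 and 1.52 in PPE. The ranges overlapped almost wholly, with a log2 fold change of -0.13 (adjusted p = 0.678 by limma, SE 0.206), and the sign turned under median centring (0.45). Tlr3, which binds double-stranded RNA, had a log2 fold change of 0.79 (adjusted p = 0.0178 by limma, SE 0.227), short of the threshold, and overlapped through PPE 5. The fit with slide as a block did call it higher, at 0.75 (limma adjusted p = 0.00666 fixed and 0.0052 random), as did SAM and the fit without PPE 5, at 0.98 (limma adjusted p = 0.00117). Tlr11 was above background on 1 sham and 3 PPE arrays and was not tested.

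All 8 cytosolic sensors and inflammasome genes were tested and all 8 rose, without overlap between the groups, with a median log2 fold change of 1.76 (range 0.45 to 2.55). Of all names tested, 13.9% were called higher, and the groups did not overlap for 25.5%. Of the 8 genes, 4 were above background on every sham array. These 4 rose, against 15.1% of all names detected in that way. Pycard, which encodes ASC, the adaptor that joins sensors to caspase-1 (chr7:135136241-135136300), had log2 ratios of -0.43, -0.12, 0.09, 0.08 and 0.54 in sham and 2.96, 2.49, 2.31, 2.28 and 2.86 in PPE. The gap between the groups, from 0.54 to 2.28, was wider than the range within either, and the log2 fold change was 2.55 (adjusted p = 2.83e-06 by limma, SE 0.194). Nod2, a sensor of peptidoglycan fragments, gave -0.54, -0.19, -0.18, -0.69 and -0.07 in sham and 2.45, 1.22, 1.66, 1.99 and 1.53 in PPE. It was below 0 on each sham array, and its lowest PPE value was 1.22, with a log2 fold change of 2.10 (adjusted p = 2.47e-05 by limma, SE 0.219). Casp4, which encodes mouse caspase-11, the caspase that binds intracellular lipopolysaccharide, measured -1.03, -0.47, -1.29, -0.54 and -0.10 in sham and 1.21, 1.18, 1.08, 0.89 and 1.84 in PPE. Sham values spread from -1.29 to -0.10 without reaching the PPE values, and the log2 fold change was 1.93 (adjusted p = 8.14e-05 by limma, SE 0.237). Its second probe gave 1.83.

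The other members of the group followed in size. Casp1, which cleaves pro-interleukin-1β, rose by 1.79 on the log2 scale (adjusted p = 3.92e-05 by limma, SE 0.199). Nlrc4, the sensor that works with NAIP proteins, rose by 1.73 on the log2 scale (adjusted p = 0.00328 by limma, SE 0.368), with its probe above background on 2 sham arrays and PPE values between 0.91 and 3.44. Nod1 rose by 1.46 on the log2 scale (adjusted p = 3.23e-05 by limma, SE 0.157) and Aim2, a sensor of cytosolic DNA, by 1.14 on the log2 scale (adjusted p = 0.00349 by limma, SE 0.244). The Aim2 call was lost without sham 4 and without PPE 3. Nlrp3, the sensor most often studied in sterile inflammation, showed the smallest change of the 8, with a log2 fold change of 0.45 (adjusted p = 0.00988 by limma, SE 0.116). The Nlrp3 call was at the edge of the threshold and was lost when any 1 of the 10 arrays was left out. A second Nlrp3 probe gave 0.54 (limma adjusted p = 0.0906 over all probes).

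The adaptors and kinases were less uniform. Of 14 tested, 8 rose, none fell and 6 did not pass the test, and the median log2 fold change was 0.53 (range -0.27 to 3.67). Traf1, an NF-κB-induced TRAF protein found mainly in activated leukocytes (chr2:34798882-34798941), had the highest log2 fold change of all 44 genes. Its log2 ratios were -0.90, -0.66, 0.22, -0.63 and -0.73 in sham and 3.68, 3.08, 3.11, 2.80 and 2.97 in PPE. Sham 3 stood apart from the other sham arrays but remained well below the lowest PPE value, and the log2 fold change was 3.67 (adjusted p = 6.74e-07 by limma, SE 0.221). Myd88, the adaptor of most Toll-like receptors and of the interleukin-1 receptor, gave -0.17, -0.12, -0.21, -0.05 and 0.05 in sham and 1.87, 1.23, 1.46, 1.46 and 1.55 in PPE. Both groups were tight, for a log2 fold change of 1.61 (adjusted p = 2.98e-06 by limma, SE 0.124). Ikbke, an IκB kinase relative that also acts on interferon regulatory factors, measured -0.76, -0.17, -0.33, -0.44 and 0.01 in sham and 1.87, 1.29, 0.70, 1.30 and 0.88 in PPE. The lowest PPE value was 0.70 and the highest sham value 0.01, with a log2 fold change of 1.55 (adjusted p = 0.000209 by limma, SE 0.218).

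Traf2, which links TNF receptors to the kinases, had log2 ratios of -0.47, -0.78, -0.90, -0.96 and -0.57 in sham and 0.55, 0.21, 0.37, 0.10 and 0.06 in PPE. Every sham array lay below 0 and every PPE array above it, with a log2 fold change of 0.99 (adjusted p = 0.000169 by limma, SE 0.135). A second, dimmer Traf2 probe had a log2 fold change of 0.00302, and with the mean of both probes the call was lost, so the value of Traf2 depends on the probe. The 2 catalytic subunits of the classical IκB kinase also rose. Chuk, the IKKα subunit, gave -0.57, -0.62, -0.70, -0.81 and -0.63 in sham and -0.07, -0.20, -0.22, -0.24 and -0.45 in PPE. The lowest PPE value, -0.45, lay a little above the highest sham value, -0.57, for a log2 fold change of 0.43 (adjusted p = 0.0061 by limma, SE 0.101), and the call was lost when sham 2, sham 3, sham 4, sham 5, PPE 1, PPE 2, PPE 3 or PPE 4 was left out. Ikbkb, the IKKβ subunit, measured 0.03, 0.26, 0.41, 0.41 and -0.01 in sham and 1.20, 0.96, 0.99, 1.11 and 0.80 in PPE. The groups were apart, with a log2 fold change of 0.79 (adjusted p = 0.000452 by limma, SE 0.125). Irak4, the kinase that Myd88 recruits, rose by 0.99 on the log2 scale (adjusted p = 0.000964 by limma, SE 0.173), and Traf3 by 0.54 on the log2 scale (adjusted p = 0.00125 by limma, SE 0.0977).

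Ticam1, which encodes the adaptor TRIF, had log2 ratios of -0.27, -0.32, -0.54, -0.20 and -0.39 in sham and 0.17, 0.11, -0.07, -0.11 and 0.04 in PPE. The groups did not overlap, yet the log2 fold change of 0.37 (adjusted p = 0.0145 by limma, SE 0.103) missed the threshold. With slide as a random block Ticam1 was called higher (limma adjusted p = 0.00458). Ripk2, the kinase below Nod1 and Nod2, also had no overlap and missed the threshold, with a log2 fold change of 0.52 (adjusted p = 0.0175 by limma, SE 0.149). Tirap had a log2 fold change of 0.38 (adjusted p = 0.0345 by limma, SE 0.125) and Traf6 a log2 fold change of 0.51 (adjusted p = 0.0166 by limma, SE 0.144), and the groups of both overlapped. With slide as a block Traf6 was called higher, at 0.58 with a fixed block (limma adjusted p = 0.00744) and 0.52 with a random one (limma adjusted p = 0.00432), and also without sham 4, at 0.60 (limma adjusted p = 0.00702). Tirap was called higher with the random block (limma adjusted p = 0.00874), and Ripk2 without PPE 2, at 0.61 (limma adjusted p = 0.00797). Ripk2 was also called higher with an offset of 16, at 0.72 (limma adjusted p = 0.00788), and with the deposited LogRatio, at 1.34 (limma adjusted p = 0.00605). SAM called Ticam1, Ripk2, Tirap and Traf6 higher. The other Traf6 probes gave 0.31 and -0.08. Irak1 had a log2 fold change of -0.07 (adjusted p = 0.826 by limma, SE 0.191), with its sign turned under median centring (0.58), the mean of probes (0.020) and a fixed slide block (0.077), and Irak2 had a log2 fold change of -0.27 (adjusted p = 0.194 by limma, SE 0.152), turned under median centring (0.33). A second, dimmer Irak2 probe gave -0.58 (limma adjusted p = 0.00859 over all probes), so the probes of Irak2 fall on different sides of the threshold. Ticam2, which encodes TRAM, was above background on 0 of 5 sham and 3 of 5 PPE arrays, was not tested, and was at least 1.19-fold higher in PPE by the bound.

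Of the 4 tested NF-κB subunits, 3 rose, with a median log2 fold change of 1.01 over the 4. Relb and Nfkb2 encode the dimer of the non-canonical pathway, which is slow and depends on new synthesis, while Nfkb1 and Rela encode the dimer of the canonical one. Relb (chr7:20191722-20191781) had log2 ratios of -0.42, -0.41, -0.09, -0.36 and -0.63 in sham and 1.63, 1.27, 1.38, 1.48 and 0.72 in PPE. The lowest PPE value was 0.72 and every sham value was below 0, with a log2 fold change of 1.68 (adjusted p = 2.04e-05 by limma, SE 0.17), and a second probe gave 1.63. Nfkb2, whose promoter with 2 κB runs is shown above, measured -1.95, -1.88, -1.86, -1.64 and -1.99 in sham and -0.18, -0.09, -0.49, -0.23 and -0.82 in PPE. PPE 5 was the lowest of its group and still above every sham array, and the log2 fold change was 1.50 (adjusted p = 1.46e-05 by limma, SE 0.146). Nfkb1 gave -0.77, -0.74, -0.93, -0.80 and -0.71 in sham and -0.03, -0.30, -0.65, -0.22 and -0.13 in PPE. PPE 3, at -0.65, came close to sham 5, at -0.71. The log2 fold change was 0.53 (adjusted p = 0.00596 by limma, SE 0.123). This call was lost when any of sham 1 to sham 4 or PPE 1, PPE 2, PPE 4 or PPE 5 was left out. A second Nfkb1 probe gave 0.60 (limma adjusted p = 0.00148 over all probes).

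Rela, which encodes the main activating subunit, gave 0.43, 0.71, -0.09, 0.54 and 0.45 in sham and 0.36, 0.49, 0.28, 0.16 and 0.88 in PPE. The groups overlapped, with the highest value on PPE 5 and the lowest on sham 3. The log2 fold change of 0.02 (adjusted p = 0.935 by limma, SE 0.173) missed the threshold, and its sign turned with an offset of 16 (-0.012), without background correction (-0.018) and with slide as a block (-0.058 fixed, -0.000617 random). Rel stayed at background on all 10 arrays and was not tested, with ratios between -0.19 and 0.06. These are transcript levels, and the activity of NF-κB depends mainly on the release and transport of the proteins, which arrays do not measure.

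**Figure D2:**
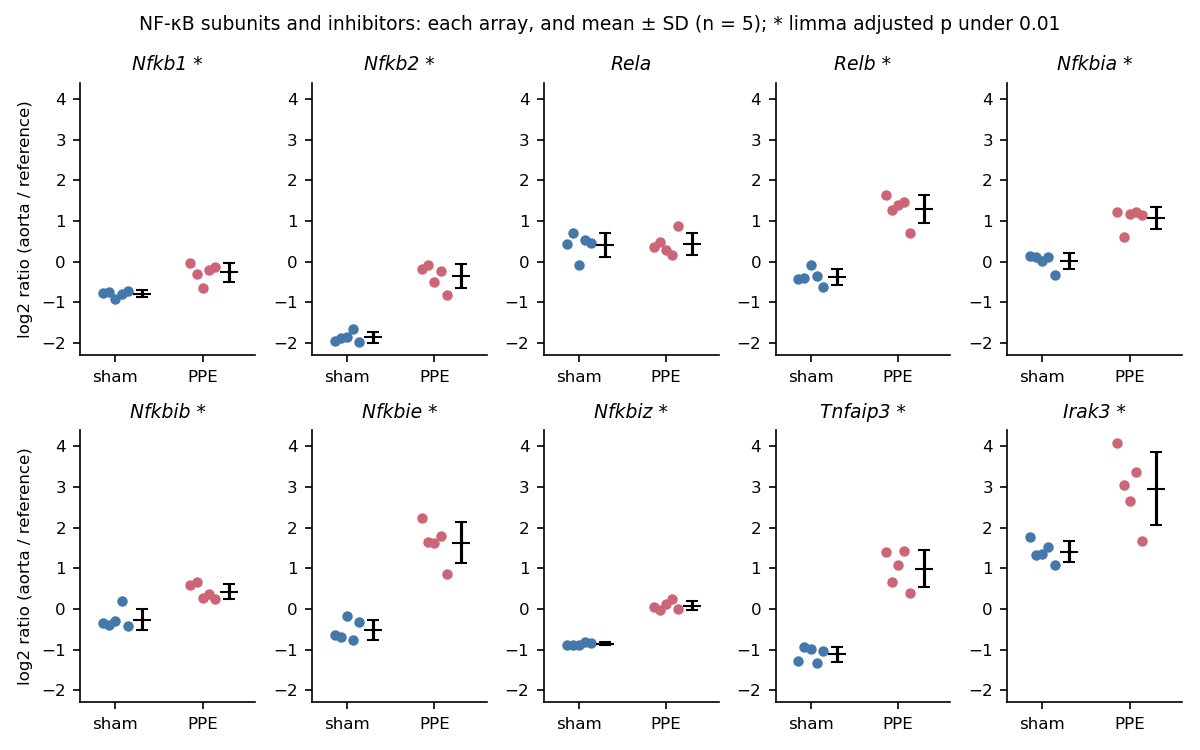
Log2 ratio of aorta over reference (y axis) on each of 5 sham and 5 PPE arrays. The genes are the 4 tested NF-κB subunits and the 6 feedback inhibitors and IκB proteins. The mean and SD of each group stand beside the dots, and asterisks mark a limma adjusted p under 0.01. The means of Rela are 0.41 in sham and 0.43 in PPE, while those of Relb, Nfkb2, Nfkbie and Tnfaip3 lie more than 1 unit apart.

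All 6 feedback inhibitors and IκB proteins were tested and rose, with a median log2 fold change of 1.31 (range 0.68 to 2.16). Of these, 5 did so without overlap, against 25.5% of all names tested. All 6 were above background on every sham array. Nfkbie, which encodes IκBε (chr17:45700000-45700059), had log2 ratios of -0.65, -0.70, -0.18, -0.76 and -0.32 in sham and 2.25, 1.65, 1.61, 1.80 and 0.87 in PPE. The lowest PPE value was 0.87 and no sham value reached 0, with a log2 fold change of 2.16 (adjusted p = 2.43e-05 by limma, SE 0.224). Tnfaip3, which encodes A20, the ubiquitin-editing enzyme that ends signalling at several steps, measured -1.29, -0.93, -0.99, -1.32 and -1.03 in sham and 1.40, 0.67, 1.08, 1.42 and 0.40 in PPE. The highest sham value was -0.93 and the lowest PPE value 0.40, for a log2 fold change of 2.11 (adjusted p = 1.19e-05 by limma, SE 0.199). Irak3, the inactive kinase IRAK-M that restrains IRAK signalling in macrophages, gave 1.76, 1.33, 1.36, 1.52 and 1.09 in sham and 4.08, 3.05, 2.66, 3.37 and 1.68 in PPE. The PPE values were widely spread and PPE 5 lay below sham 1, and the log2 fold change was 1.55 (adjusted p = 0.00526 by limma, SE 0.356). The Irak3 call was lost when any of sham 2 to sham 5, PPE 2 or PPE 4 was left out.

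Nfkbia, which encodes IκBα and is the earliest feedback inhibitor, gave 0.13, 0.11, 0.02, 0.13 and -0.33 in sham and 1.22, 0.60, 1.18, 1.23 and 1.15 in PPE. PPE 2 was the lowest PPE array and sham 5 the lowest sham array, the groups stayed apart, and the log2 fold change was 1.06 (adjusted p = 0.000192 by limma, SE 0.148). Nfkbiz, an atypical nuclear IκB that helps induce secondary response genes, had the tightest sham group of the 6 (SD 0.04) and rose by 0.94 on the log2 scale (adjusted p = 1.4e-05 by limma, SE 0.0906). Nfkbib, which encodes IκBβ, rose by 0.68 on the log2 scale (adjusted p = 0.00297 by limma, SE 0.143). Its other 2 probes each gave 0.28, and the call was lost without sham 2.

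Whether related genes changed by unequal amounts was asked of 17 pairs (the pair of Rela and Rel was left out, since Rel was not tested), by taking the difference of the 2 log2 ratios on each array and comparing PPE with sham in an exact two-sided permutation test, adjusted over the 17 pairs. The smallest p that 5 against 5 arrays can give is 0.00794. An adjusted p under 0.05 was reached by 11 pairs. Among receptors, Tlr4 changed less than Tlr2, with a difference of -2.59 (SE 0.136, exact permutation adjusted p = 0.0225). Tlr6 rose less than Tlr1, with a difference of -1.39 (SE 0.318, exact permutation adjusted p = 0.03). Tlr9 over Tlr7 gave a difference of -2.14 (SE 0.2, exact permutation adjusted p = 0.0225). Tlr8 rose less than Tlr7, with -1.03 (SE 0.195, exact permutation adjusted p = 0.0225), but this turned to 0.94 (adjusted p = 0.249 in the same exact permutation test) with the deposited LogRatio. The offset of 50 used here draws ratios of dim probes such as that of Tlr8 towards 0. Its part in the turned sign was not tested.

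Below the receptors, Ticam1 changed less than Myd88, with a difference of -1.24 (SE 0.115, exact permutation adjusted p = 0.0225), and Traf2 less than Traf1, with -2.68 (SE 0.276, exact permutation adjusted p = 0.0225). Ikbkb rose more than Chuk, by 0.36 (SE 0.131, exact permutation adjusted p = 0.0368), and Ikbke more than Ikbkb, by 0.76 (SE 0.225, exact permutation adjusted p = 0.03). Nfkb2 rose more than Nfkb1, by 0.98 (SE 0.18, exact permutation adjusted p = 0.0225). Relb changed more than Rela, by 1.66 (SE 0.341, exact permutation adjusted p = 0.03), although PPE 5 lay within the range of the sham arrays. Nfkbie rose more than Nfkbia, by 1.09 (SE 0.303, exact permutation adjusted p = 0.0368). The groups also overlapped for Tlr6 minus Tlr1, Ikbkb minus Chuk, Ikbke minus Ikbkb and Nfkbie minus Nfkbia.

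No unequal change was detected for 6 pairs. The difference of Nod2 over Nod1 was 0.65 (SE 0.322, exact permutation adjusted p = 0.125), and that of Irak3 over Irak4 was 0.57 (SE 0.262, exact permutation adjusted p = 0.0787). For Casp4 over Casp1, both caspases of the inflammasome, it was 0.14 (SE 0.204, exact permutation adjusted p = 0.557). For Irak2 over Irak1 the difference was -0.21 (SE 0.215, exact permutation adjusted p = 0.405), for Traf6 over Traf3 -0.03 (SE 0.164, exact permutation adjusted p = 0.889) and for Nfkbib over Nfkbia -0.38 (SE 0.215, exact permutation adjusted p = 0.154). With 5 arrays a group these pairs are not shown to have changed alike. When each array was left out in turn, between 6 and 11 pairs passed, and 6 passed without sham 1, without sham 2 or without PPE 1. With an array left out, the smallest p that the test can give is larger. That by itself makes the threshold harder to reach.

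**Figure D3:**
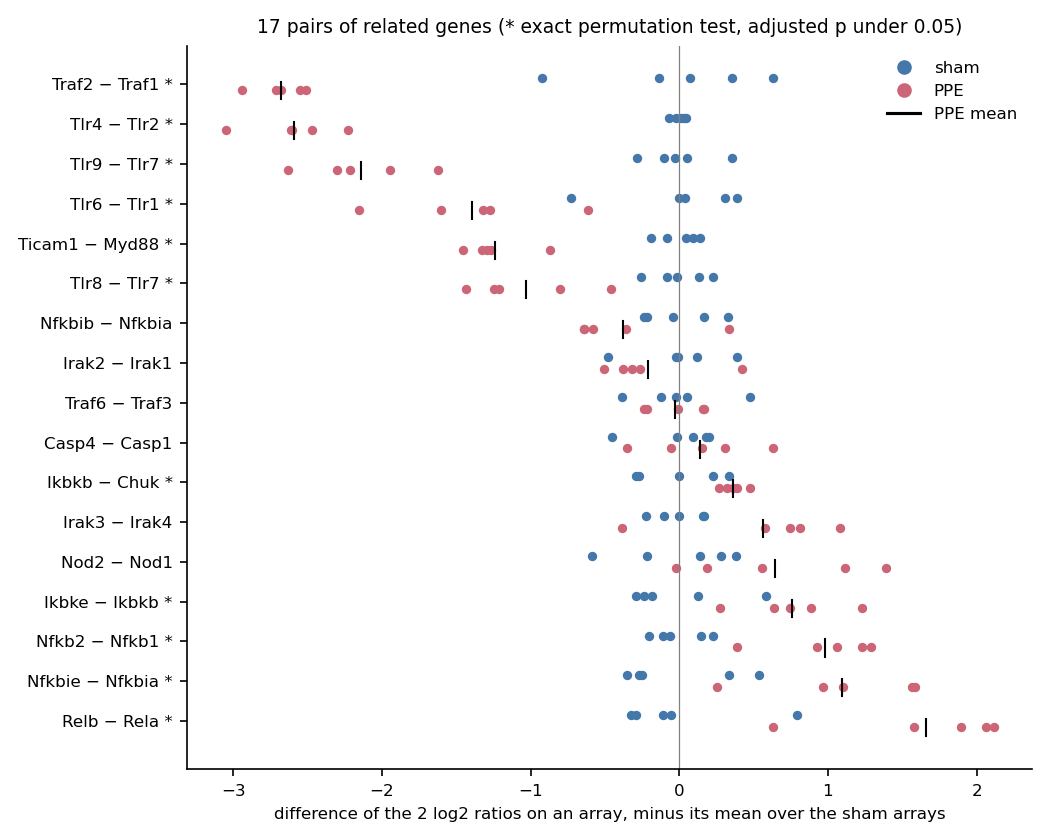
For each of 17 pairs (y axis), dots give the difference of the 2 genes' log2 ratios on each array minus its mean over the 5 sham arrays (x axis), blue for sham and red for PPE, with a black tick at the PPE mean. Asterisks mark the 11 pairs with an adjusted p under 0.05 in the exact permutation test, from Traf2 minus Traf1 at -2.68 to Relb minus Rela at 1.66.

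Other genes of the pathway were taken from lists by function. Of 9 receptor partners and chaperones, 5 rose and 1 fell, with a median log2 fold change of 0.86. Cd14, which hands lipopolysaccharide to Tlr4, rose by 3.30 on the log2 scale (adjusted p = 9.35e-05 by limma, SE 0.415). Ly86 (MD-1), the partner of Cd180, rose by 3.22 on the log2 scale (adjusted p = 3.28e-06 by limma, SE 0.251), and Lgmn, a protease that processes endosomal receptors, by 2.58 on the log2 scale (adjusted p = 1.54e-07 by limma, SE 0.0967). Cd36, a scavenger receptor shared with fat cells and endothelium, was the gene that fell, with a log2 fold change of -1.17 (adjusted p = 0.00815 by limma, SE 0.289). Of 23 components outside the 48 genes, 12 rose and none fell, with a median of 0.60. The largest changes were those of Irf7 (3.05, adjusted p = 4.56e-05 by limma), Irf5 (2.87, adjusted p = 1.4e-06 by limma) and Naip2 (2.80, adjusted p = 3.26e-06 by limma). Irf5 and Irf7 are interferon regulatory factors below MyD88, and Naip2 is a receptor protein for the Nlrc4 inflammasome.

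Of 17 negative regulators outside the 48 genes, 11 rose and none fell, with a median of 1.12. Il1r2, the decoy receptor of interleukin-1, rose by 4.19 on the log2 scale (adjusted p = 6.47e-07 by limma, SE 0.248). Its probe was above background on 2 of 5 sham and 5 of 5 PPE arrays. Nlrc5 rose by 2.68 on the log2 scale (adjusted p = 3.61e-07 by limma, SE 0.143) and Bcl3, a nuclear IκB relative, by 2.59 on the log2 scale (adjusted p = 1.25e-06 by limma, SE 0.17). Il1rn, the interleukin-1 receptor antagonist, was above background on 0 of 5 sham and 5 of 5 PPE arrays, so that it entered the test through PPE alone. Its log2 ratios ranged from -0.53 to -0.15 in sham and from 0.87 to 3.25 in PPE. Of 26 tested transcripts known as NF-κB targets, 23 rose and none fell, with a median of 2.19. Of the 26, 18 were above background on every sham array, and 15 of these rose, with a median of 2.18. Another 4 (Il6, Il12b, Cxcl2 and Cxcl5) were above background on 0 sham and 5 PPE arrays and were tested through PPE alone. Of the negative regulators, 12 were above background on every sham array and 7 of these rose, with a median of 0.78. In these targets, in the negative regulators and in the components, 0 genes were lower by SAM or at an unadjusted limma p under 0.05. Saa3, an acute phase protein, rose by 7.36 on the log2 scale (adjusted p = 6.02e-07 by limma, SE 0.429), and Il1b, the cytokine that inflammasomes mature, by 5.80 on the log2 scale (adjusted p = 1.54e-07 by limma, SE 0.234). The Il1b probe was above background on 2 of 5 sham and 5 of 5 PPE arrays. Cxcl5, a chemokine for neutrophils, was at least 96.0-fold higher in PPE by the bound on the red channel. The targets Ptgs2, Sod2 and Csf1 did not pass the test, with log2 fold changes of 0.69, -0.46 and 0.49.

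The tissue is a mixture of cells, and in bulk RNA a change in the number of cells of a type and a change in RNA per cell cannot be told apart. Markers of leukocytes moved with the genes described here. Of 12 macrophage markers 7 rose, and the mean log2 ratio over the tested markers lay between 0.97 and 1.59 on the sham arrays and between 2.70 and 3.66 on the PPE arrays. All 12 were well above background on every sham array. Of 10 neutrophil markers with a probe 8 rose (2 of the 4 that were above background on every sham array), with means of 0.38 to 0.49 in sham and 2.52 to 3.96 in PPE. Ngp was not above background on any sham array, and Cxcr2, Mpo and Ltf were above it on 1 sham array each. Of 9 T cell markers 6 rose, with means of -0.94 to 0.12 and 0.81 to 1.89. None of 6 tested B cell markers was called by limma (1 was higher at an unadjusted p under 0.05 and 1 by SAM), and the means overlapped. Smooth muscle markers went the other way, with 8 of 10 lower and means of 3.02 to 4.19 in sham and 1.54 to 2.69 in PPE. None of 8 endothelial markers was called by limma (2 were higher at an unadjusted p under 0.05 and 1 by SAM). None of 6 adipocyte markers was called by limma (2 were lower at an unadjusted p under 0.05 and 0 by SAM), while 3 of 7 fibroblast markers rose. The part of these cell types in the changes of the signalling genes was not tested.

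**Figure D4:**
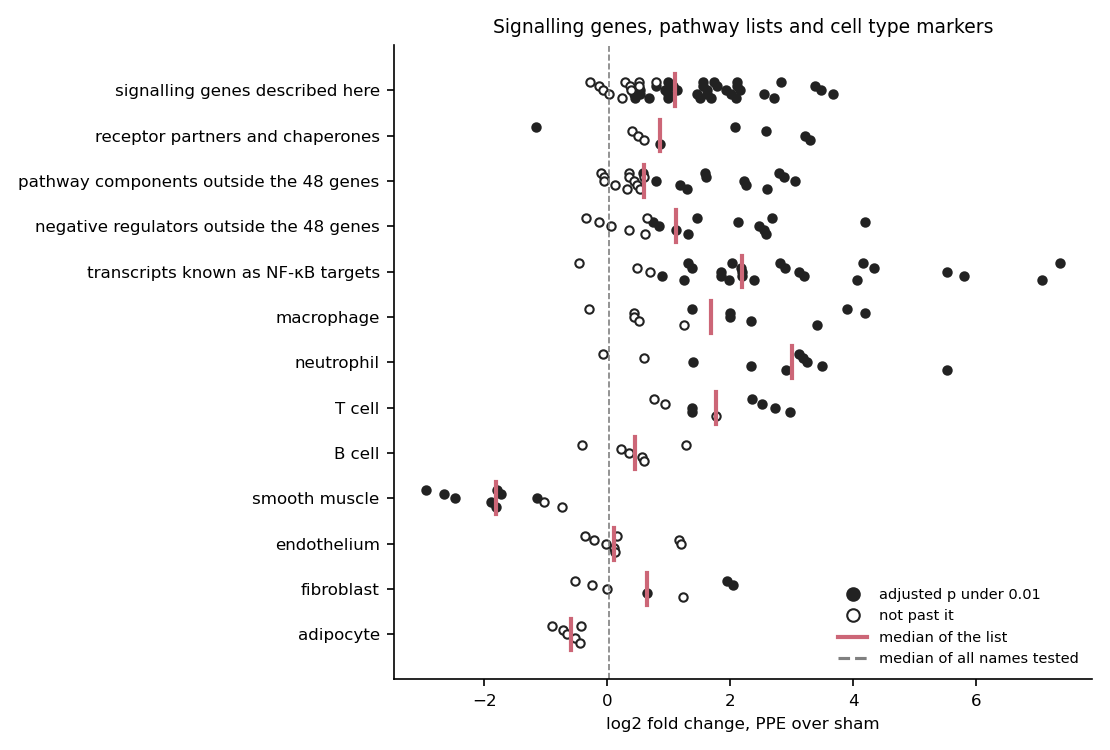
Each dot is a tested gene, placed by its log2 fold change of PPE over sham (x axis), for the signalling genes described here, the pathway lists and the cell type markers (y axis). Filled dots passed a limma adjusted p of 0.01 and red ticks are list medians, at 1.10 for the signalling genes, 3.01 for neutrophil markers, 1.68 for macrophage markers and -1.80 for smooth muscle markers, against a dashed line at 0.02 for all names tested.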

How the data were processed

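The 48 genes, their roles, the pathway and marker lists and the pairs were chosen with earlier results of these data known. Per the labels, the 10 arrays were Agilent SurePrint G3 mouse arrays with aortic RNA in red (Cy5) and the reference in green (Cy3). The authors scanned them and extracted spots with Feature Extraction 10.7.3.1. Per the study's methods, the authors had removed poorly hybridized arrays and, after clustering and principal components analysis, outliers. Removing outliers by expression pattern can narrow the spread within groups and so lower p-values, and the size of this was not tested. Per the file headers, each array holds 62976 spots, of which 59305 are not controls. For each spot the deposited files give an intensity (linear, mean signal and local background) in both channels, and a LogRatio on the log10 scale (red over green, per the file headers), converted here to log2. The series matrix deposited by the authors holds log2 ratios that equalled log2 of processed red over green on 100% of spots (tolerance 1e-04).

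In R 4.3.3 with limma 3.58.1, normexp (offset 50) and loess were applied to mean signals and median local backgrounds. Control spots and 176 to 331 outlier spots per array were dropped and spots of a probe averaged. Probes with red signal called well above background on 5 or more of the 10 arrays were tested, and a gene was represented by its brightest tested probe. PPE was compared with sham by limma (lmFit, eBayes), two-sided and unpaired, on all 22520 names, with Benjamini-Hochberg adjustment and a threshold of 0.01, after the study's false discovery rate. The fit was tested on simulated data. Pairs were compared by exact permutation over 252 relabellings. Probe positions are those of the files, on mm9. No exon or UTR annotation of that build was used here. Promoters came from RefSeq tables of GRCm38.p6.

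Values of each array are given for the called genes with the 3 largest changes of each role (4 for adaptors and kinases), for the tested NF-κB subunits and for members of pairs that differed. The alternatives were another offset, no background correction, the LogRatio, the series matrix, median centring, scaling between arrays and other filters on dim probes. Further ones were the mean of probes, slide as a block, the replicate number as a block, a SAM test with 100 drawn relabellings, and leaving out each array. The SAM test was written here after the study's method and run on the ratios used here. Its counts are not those of the study.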

Additional observations from a re-analysis of the deposited data

Results flagged for a closer look

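In 6 of 88 groups of 5 arrays (44 genes in sham and in PPE), 1 array lay far from the other 4, with a gap to its neighbour above 0.71 of the whole range. Chance alone gives about 5% of groups. For Tlr7 it was PPE 1, at a log2 ratio of 2.76 with the next value at 2.37. For Traf1 it was sham 3, at 0.22 against -0.63 for the next. For Traf3 it was PPE 3, at 1.06 against 0.92. Nfkbia had an apart array in both groups, sham 5 at -0.33 (next 0.02) and PPE 2 at 0.60 (next 1.15). For Nfkbib it was sham 4, at 0.19 against -0.30. In none of the 5 genes did the array reach the other group. In the limma fit without the array named, Tlr7, Traf1, Traf3, Nfkbia and Nfkbib were each still called higher. The weakest of these was Traf3, with a log2 fold change of 0.51 and a limma adjusted p of 0.00485.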

How the results depend on the processing

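No gene was called lower under any alternative. The number called higher was 6 under median centring and 30 to 38 under the other alternatives, except for 24 (of 32 genes tested) where detection was required on each of the 10 arrays. Leaving out each array in turn gave 27 to 32 genes and 6 to 11 pairs. For the pairs, the smallest possible p is larger with an array left out. Of the 33 calls, 24 held under every alternative that tested them, other than median centring. The others were Tlr8, Nlrp3, Aim2, Traf2, Traf3, Chuk, Nfkb1, Nfkbib and Irak3. With the replicate block, 32 genes were called (Tlr3 gained, Nlrp3 and Chuk lost). The numbers do not pair the mice: deviations of same-numbered arrays correlated at -0.30 to 0.52, and 1 of 5 matched its own number best. Pair tests have no value under the slide and replicate blocks or SAM.

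The sign turned for these values, none of which passed the test in either fit except Tlr8 minus Tlr7 in the reported one. With the LogRatio and with the series matrix, Tlr8 minus Tlr7 was 0.94 and Irak3 minus Irak4 -0.36. Traf6 minus Traf3 was 0.015 with an offset of 16, 0.000352 without background correction, and -0.12 to 0.092 when each array was left out in turn (above 0 without sham 4, PPE 4 or PPE 5). Rela was -0.012 with an offset of 16, -0.018 without background correction, -0.058 with slide as a fixed block, -0.000617 as a random block, -0.10 to 0.10 when each array was left out (below 0 without sham 3 or PPE 5) and -0.077 without the 2 dimmest arrays. Irak1 was 0.58 with median centring, 0.020 with the mean of probes, 0.077 with slide as a fixed block, -0.15 to 0.12 when each array was left out (above 0 without PPE 5) and 0.14 without the 2 dimmest arrays. Under median centring Tlr9 was 0.45 and Irak2 0.33. The causes were not tested. An offset draws the ratios of dim probes towards 0, and its part in these turns was not tested.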
